A study of Rattus norvegicus with 8 samples.

Results

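The cytosolic ribosomal proteins are the protein subunits of the ribosome that translates nuclear-encoded messages. They were taken from the arrays as every gene spot named Rpl or Rps followed by a digit, together with Rplp0, Rplp1, Rplp2 and Rpsa, leaving out the ribosomal S6 kinases (Rps6k names). The rule found 87 gene names of 26276 on the array, carried by 151 probes in 169 spots. By the start of the name alone, 53 names (Rpl) were counted to the large and 34 (Rps) to the small subunit. The names included Rps19bp1, which codes for a protein that binds Rps19 and is not itself a ribosomal protein, and 3 names of pseudogenes (Rpl12-ps1, Rpl27-ps1 and Rps2-ps7).

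The study compared castrated adult male Wistar rats (120 ± 12 days old) given testosterone propionate with castrated control rats, and the series is titled as a study of muscle atrophy. Treated rats received 1 subcutaneous dose of 4 mg/kg in 1 mL/kg of corn oil and were examined at 8 h or 24 h. Castration is therefore common to both sides of every ratio. Each of the 8 arrays was hybridised with treated RNA in one dye and control RNA in the other, 4 arrays at each time, with the dyes exchanged between replicates 1 and 2 and replicates 3 and 4. Which muscle was taken is left unnamed in the labels. They do not say whether the controls received oil, whether RNA of several animals was pooled, or whether control RNA was shared between arrays or times. The series' design text calls the 4 arrays of a time biological replicates. The labelled material was checked against 16 skeletal muscle fibre genes, of which 14 had a probe well above background. Myh7 and Myh2 had none. Of 6 epithelium and male accessory gland genes on the array, 0 had such a probe.

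Ribosomal proteins are made in fixed proportion and assembled with ribosomal RNA in the nucleolus, and the number of ribosomes sets how much protein a muscle fibre can make. Most vertebrate messages for these proteins start with a C followed by an unbroken run of pyrimidines, the 5′ terminal oligopyrimidine tract (TOP). Through this tract the mTOR pathway, a sensor of growth signals and nutrients, controls how strongly the messages are translated. An array measures how much message is present and not how much of it is translated.

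The following windows run from 10 bases before to 20 bases from the annotated transcription start. They show the shared start, and annotated starts without it. They are RefSeq sequence of build GRCr8 on the strand of the gene, 5′ to 3′, and capitals mark a C at the start followed by at least 4 bases of C or T, whatever precedes it. Where there is none at the start, they mark the longest such stretch that begins within 10 bases of it. In several windows the bases just before the capitals are pyrimidines too, so the unbroken run is longer than the capitals.
Rps14 (chr18:56498250-56498279, + strand): ccgtctctctCTTTCCggtggaggagtctg
Rpl37 (chr2:55942935-55942964, + strand): ggcgtactttCTCTTCCggtctctttggcc
Rps27 (chr2:177964587-177964616, − strand): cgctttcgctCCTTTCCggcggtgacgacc
Rplp0 (chr12:46718371-46718400, − strand): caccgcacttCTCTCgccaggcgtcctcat
Rplp1 (chr8:71290853-71290882, − strand): cgcatgtgatCCTTTCCTCagctgccgcca
Rpl14 (chr8:129163610-129163639, + strand): ggccctctccCTTCTCgctgagcgccgcca
Rpl27a (chr1:172974563-172974592, + strand): cttggtgggCTCCTCCCTCTTTCTTTTCTg
Rps6 (chr5:106420521-106420550, − strand): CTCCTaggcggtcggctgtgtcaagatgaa
Rpl6 (chr12:41011671-41011700, − strand): ttacatcactagatggcgggtgaaaaggcg
Rpsa (chr8:128728869-128728898, + strand): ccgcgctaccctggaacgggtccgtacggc
Rpl22l1 (chr2:113683186-113683215, + strand): gtggatatccggttccgagttgcgcagcgc
Of the 87 names, 67 were found in the RefSeq promoter table by symbol, with 68 promoters. A C at the annotated start followed by at least 4 pyrimidines, whatever came before, was present in 24 of these 68 (35.3%), against 881 of all 33469 promoters in the table (2.63%). Such a stretch with its C within 10 bases of the start was present in 50 of 68 (73.5%), against 9660 of 33469 (28.9%). Only the strand of the gene was searched. Among the windows shown, those of Rpl6, Rpsa and Rpl22l1 held none. The annotated starts were not checked against the messages, so a window without the stretch does not show a message without a TOP.

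Most ribosomal protein probes gave signals well above background. A probe was kept if, in treated or control RNA of either time, 3 or more of its 4 arrays were well above background. Of the 151 probes, 145 passed, for 84 names, and 143 were well above background in both channels of all 8 arrays. The 6 that did not pass were 1 probe each of Rpl37a, Rpl28, Rpl36a, Rpl10l, Rps19bp1 and Rpl27-ps1, so that the last 3 names have no kept probe. No ribosomal protein spot was saturated on any array. Values are log2 ratios of treated over control RNA, fitted with limma over all 12074 kept probes with an effect of each time and of the dye. A probe rose or fell where its p-value, adjusted by Benjamini-Hochberg over all these probes, was under 0.05.

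At 8 h no ribosomal protein probe passed the test in either direction (limma). Over all kept probes 0.0166% rose and 0.00829% fell at that time. At an unadjusted p under 0.05, 9 of the 145 probes were higher (6.21%) and 7 lower (4.83%), against 6.31% and 10.6% of all kept probes. The median fitted log2 ratio of the 145 probes was −0.01, next to −0.01 for all kept probes. The count at 8 h depended on 1 array, since without 8 h replicate 2 the same test called 11 ribosomal protein probes, 5 higher and 6 lower, among 1293 probes over all.

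At 24 h 10 ribosomal protein probes of 9 genes rose and 0 fell. They included Rps6 (2 probes), Rpsa, Rpl6, Rpl27a, Rpl21, Rpl14, Rpl36a and Rps19. These probes were picked by their values on the same arrays, so the single-array values given below describe them and are not further support. The fitted values of the 10 probes ran from 0.27 to 0.56 on the log2 scale (1.20-fold to 1.47-fold). The 10 probes were 6.90% of the 145, against 4.15% of all kept probes that rose and 2.77% that fell, so the share of ribosomal protein probes that rose was near that of the array as a whole. At an unadjusted p under 0.05, 30 ribosomal protein probes were higher (20.7%) and 4 lower (2.76%), against 12.3% and 9.67% of all kept probes. The 4 lower ones were Rplp2, Rps9, Rpl11 and Rpl22l1.

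The 24 h shift was small and spread over many of the probes. The median fitted log2 ratio was 0.09 over the 145 probes and 0.00 over all kept probes, and 104 of the 145 were above 0 (71.7%), against 50.7% of all kept probes. Counted with the brightest probe of each gene alone, 53 of 84 genes were above 0 and 31 below. Their median was 0.07, against 0.00 over all genes. On the 4 arrays at 24 h the median of the ribosomal protein probes was 0.08, 0.13, 0.08 and 0.13. On the 4 arrays at 8 h it was 0.01, −0.04, 0.11 and −0.05. Every 24 h array was thus above 0, with a mean of 0.11 ± 0.03 (SD, n = 4), whereas the 8 h arrays lay on both sides of it with a mean of 0.01 ± 0.07 (SD, n = 4). Replicate 3 at 8 h lay above 2 of the 24 h arrays, so the times overlapped. Of 144 probes measured on all 4 arrays at 24 h, 37 were above 0 on every one (25.7%) and 0 were below 0 on every one. Over all kept probes these shares were 15.4% and 13.5%. At 8 h 11 of 142 were above 0 on every array and 12 of 142 below, against 9.60% and 11.8% of all kept probes. The arrays of each time were on a slide and scan of their own, and a slide effect cannot be told apart from one of time.

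**Figure D1:**
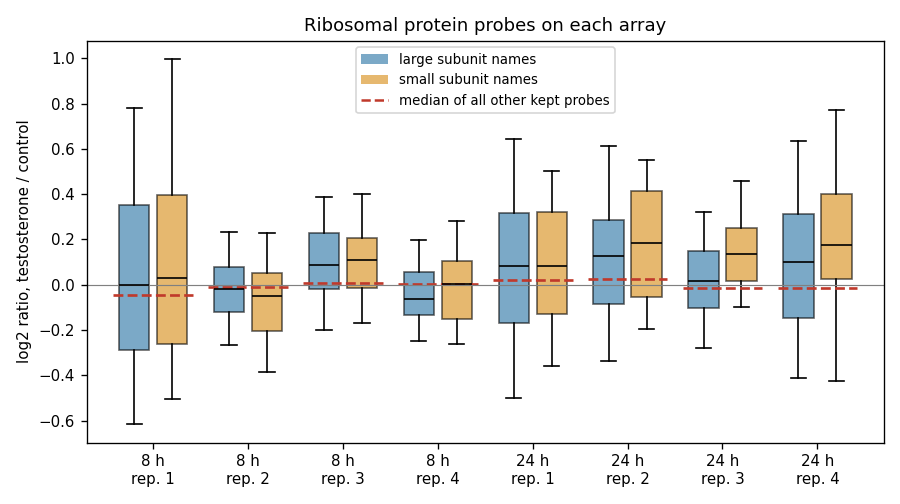
Log2 ratio of testosterone over castrated control RNA (vertical axis) of the kept ribosomal protein probes on each of the 8 arrays, for 90 large subunit probes (blue) and 55 small subunit probes (orange). Boxes span the quartiles with the median, whiskers reach the 5th and 95th percentiles, and the dashed line is the median of all other kept probes. At 24 h the array medians of all ribosomal protein probes were 0.08 to 0.13, and 8 h replicate 1 had the widest spread.

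The size of the 24 h shift depended on how brightness was handled, and many ribosomal protein spots are among the brightest on the array. With each array only centred on its median in place of the loess curve, the median of the ribosomal protein probes became 0.52 at 24 h, while that of all kept probes became 0.15. With the same centring the 8 h median moved from −0.01 to 0.48, with 144 of 145 probes above 0, and that of all kept probes to 0.12. The medians of single arrays differed widely with this centring, with an SD over the 4 arrays of 0.945 at 24 h and 1.37 at 8 h, so neither centred value exceeds its spread between arrays. With the curve drawn without the ribosomal protein spots the medians were −0.02 and 0.10.

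The large and small subunits were compared at each time. At 24 h 5 of 90 large subunit probes and 5 of 55 small subunit probes rose. The median fitted value was 0.07 for the large subunit and 0.14 for the small, a difference of −0.07, and 67.8% and 78.2% of the probes were above 0. On the 4 arrays the large subunit median minus the small was 0.00, −0.05, −0.12 and −0.07, so the small subunit was higher on 3 arrays and level on the other. At 8 h the medians were −0.02 and 0.02, and the array differences were −0.03, 0.03, −0.02 and −0.07. The difference at 24 h was of the size of the differences between arrays.

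Among small subunit proteins, Rps6 gave the steadiest result. It is the substrate that the S6 kinases phosphorylate downstream of mTOR. Its 2 probes match different parts of the message, lie at chr5:106165769-106165828 and chr5:106165853-106166989 in the files' build rn4, and share no run of bases longer than 7. The first read 0.50, 0.45, 0.44 and 0.42 at 24 h, and 0.21, −0.04, −0.02 and 0.25 at 8 h. Its second probe read 0.42, 0.45, 0.50 and 0.71 at 24 h, and −0.04, 0.15, −0.09 and 0.08 at 8 h. Neither probe had a 24 h array as low as its highest 8 h array. The fitted 24 h values were 0.45 ± 0.07 (SE; limma adjusted p = 0.00605) and 0.52 ± 0.07 (SE; limma adjusted p = 0.00278). The second probe was also the only ribosomal protein probe past the threshold between the times, with a difference of 0.50 (limma adjusted p = 0.0488). Over all kept probes 0.729% were higher and 0.530% lower at 24 h than at 8 h. That call was lost in 12 of 18 alternatives, among them leaving out 8 h replicate 1, 3 or 4 or 24 h replicate 1, 2, 3 or 4, with adjusted p up to 0.718. With the replicate number as a block it was also lost, and 0 probes passed.

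Rpsa, which is also known as the laminin receptor precursor, rose on 1 of its 2 probes. That probe, at chr8:125100879-125100938 (rn4), read 0.79, 0.77, 0.16 and 0.51 at 24 h and −0.42, 0.23, 0.32 and −0.42 at 8 h. Every array at 24 h was above 0, but replicate 3 lay inside the 8 h range. Its fitted value was 0.56 ± 0.14 (SE; limma adjusted p = 0.0412). The call was lost with the replicate block. The other probe had 0.37 ± 0.14 (SE; limma adjusted p = 0.158), above 0 on 4 of 4 arrays.

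Rps19, which is mutated in many patients with Diamond-Blackfan anaemia, rose on 1 of 3 probes. The probe at chr1:80182296-80182355 (rn4) read 0.31, 0.50, 0.10 and 0.16 at 24 h, and −0.39, −0.34, 0.11 and 0.07 at 8 h. Replicate 3 at 24 h lay below the highest value at 8 h. Its fitted value was 0.27 ± 0.07 (SE; limma adjusted p = 0.0416), and the call was lost with the replicate block. The other probes had larger fitted values, 0.31 and 0.38, but did not pass.

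Among large subunit proteins, Rpl27a rose on its only probe. The probe, at chr1:167116637-167116696 (rn4), read 0.75, 0.49, 0.32 and 0.56 at 24 h and −0.22, 0.24, −0.01 and −0.24 at 8 h. All 24 h arrays lay above all 8 h arrays. Its fitted value was 0.53 ± 0.10 (SE; limma adjusted p = 0.0126).

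Rpl6 rose on 1 of 2 probes. The probe at chr12:36484386-36484445 (rn4) read 0.77, 0.60, 0.21 and 0.65 at 24 h and 0.40, 0.07, 0.09 and −0.03 at 8 h. Replicate 3 at 24 h lay below replicate 1 at 8 h. The fitted value was 0.56 ± 0.10 (SE; limma adjusted p = 0.0124), and the other probe, also above 0 on 4 of 4 arrays, had 0.24 (limma adjusted p = 0.157).

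Rpl21, Rpl14 and Rpl36a each rose on 1 probe while another probe of the same gene lay near or below 0. The risen Rpl21 probe, at chr12:8717023-8717082 (rn4), read 0.78, 0.47, 0.20 and 0.52 at 24 h, with a fitted value of 0.49 (limma adjusted p = 0.0171). The other 2 Rpl21 probes had 0.00 and 0.20. The risen Rpl14 probe, at chr8:125583392-125584222 (rn4), read 0.69, 0.61, 0.10 and 0.24 at 24 h, with a fitted value of 0.41 (limma adjusted p = 0.0344). The other Rpl14 probe read −0.68, −0.19, 0.08 and 0.54, with a fitted value of −0.06. In both the arrays with treated RNA in Cy5 (replicates 1 and 2) stood on one side and those with it in Cy3 on the other. The risen Rpl36a probe, at chrX:122042681-122043808 (rn4), read 0.45, 0.30, 0.12 and 0.24 at 24 h, with a fitted value of 0.28 (limma adjusted p = 0.0471, lost with the replicate block). The other Rpl36a probes had 0.24 and −0.18.

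**Figure D2:**
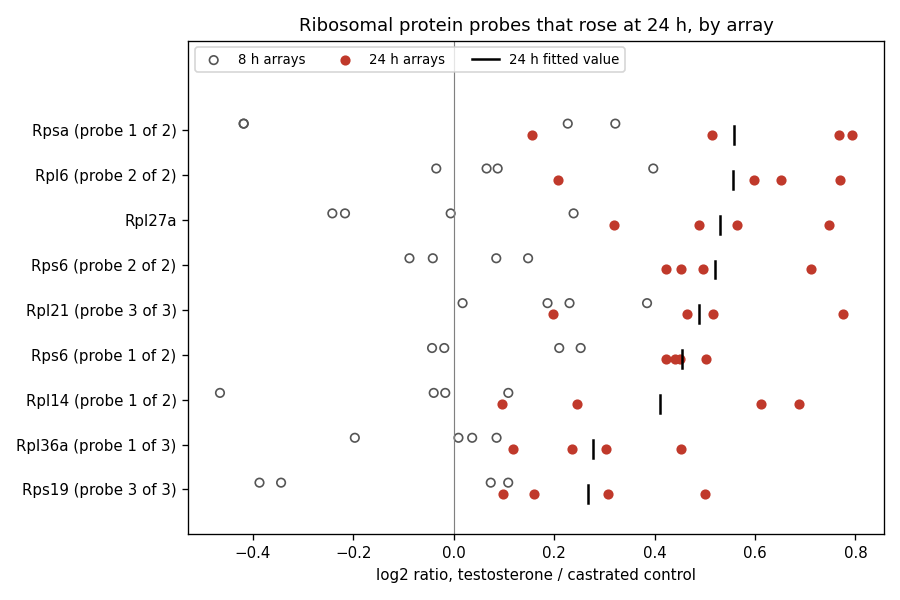
Log2 ratio of testosterone over castrated control RNA (horizontal axis) of 9 of the 10 ribosomal protein probes that rose at 24 h, on each 8 h array (open circles) and each 24 h array (filled circles), with the fitted 24 h value as a bar. All 4 arrays at 24 h were above 0 for each of these 9 probes. For both Rps6 probes, Rpl27a and Rpl36a they lay above every 8 h array. The probes were picked by their 24 h values on these arrays, so neither point is further support. How many of all kept probes had every 24 h array above every 8 h array was not counted.

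Which calls were made depended on the arrays. Without 24 h replicate 1, 1 of the 145 probes was called, and without replicate 2, 3 or 4 at that time 2, 6 and 4 were. Over all 12074 kept probes the calls in these fits fell from 835 to 208, 387, 360 and 418 in the same order. Leaving out 8 h replicate 3 gave 6 calls, and leaving out 8 h replicate 1 gave 21, among 548 and 1324 calls over all kept probes. No probe was called lower in any of these fits. The second Rps6 probe passed in all 19 alternatives run for it, with adjusted p up to 0.0432. The first passed in 17 of 20, Rpl27a in 16 of 20 and Rpl6 in 15 of 19. Rpl21 passed in 14 of 19, Rpl14 in 11 of 19, Rpsa in 10 of 19, Rps19 in 9 of 20 and Rpl36a in 7 of 19.

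The stalk proteins Rplp0, Rplp1 and Rplp2, which recruit elongation factors to the ribosome, did not pass the test. The first Rplp0 probe read 0.03, 0.10, 0.61 and 0.44 at 24 h, with a fitted value of 0.29 (limma adjusted p = 0.0515), just outside the threshold. The second, which shares a run of 41 bases with it, read −0.50, 0.58 and 0.24 on the 3 arrays that measured it, with a fitted value of 0.00. The first probe was fitted without 8 h replicate 1 and the second without 24 h replicate 2, whose spots were outliers. Rplp1 read −0.35, −0.22, 0.21 and 0.13 (fitted value −0.06). Rplp2 read −0.60, −0.36, −0.15 and 0.02, and its fitted −0.27 (limma adjusted p = 0.115) was the lowest of all ribosomal protein probes at 24 h. The values of Rplp0 and Rplp1 were low on replicates 1 and 2 and high on replicates 3 and 4, the dye orientations.

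Rpl5 and Rpl11 travel with 5S ribosomal RNA and bind Mdm2 when ribosome assembly is disturbed. Rpl5 read 0.56, −0.01, −0.14 and 1.02 at 24 h, with a fitted value of 0.36 ± 0.18 (SE; limma adjusted p = 0.277). Rpl11 had −0.21 ± 0.08 (SE; limma adjusted p = 0.172). Several ribosomal protein messages are often used as references in quantitative PCR. Of these, Rpl13a had a 24 h value of −0.13, Rps18 one of 0.06, and the 3 probes of Rpl32 had −0.06, 0.00 and 0.12. None of these passed the test. At 8 h Rps18 had 0.38 (limma adjusted p = 0.270). Not every such gene is listed here, and Rpl13a and Rpl32 were named after their values were seen.

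Some ribosomal proteins have a paralogue, in some cases with a narrower expression pattern. In mice, Rpl3l replaces Rpl3 in ribosomes of adult skeletal muscle and heart. Rpl3l read 0.17, 0.26, 0.03 and −0.19 at 24 h and 0.52, 0.19, 0.07 and 0.11 at 8 h, with fitted values of 0.07 and 0.22, and did not pass. Rpl3 read −0.08, 0.15, 0.75 and 0.37 at 24 h, with a fitted value of 0.30 (limma adjusted p = 0.0756). Its highest values were on the 2 arrays with treated RNA in Cy3. Rpl22l1, which Rpl22 represses in mice, had fitted 24 h values of −0.10 and −0.19 on 2 probes, and Rpl22 had −0.11 and 0.13. Rpl7l1 had 0.16, above 0 on 4 of 4 arrays, and Rpl7 had −0.06 and 0.09. Rpl36al had 0.08, Rpl39 had 0.02 and 0.14, and Rpl10 had −0.17 and −0.13. Rps4x had 0.17, and Rps4y2, which the files place on chromosome 4, had 0.09 on both probes. Rps27 had 0.13 and 0.28. None of these passed the test. Of Rpl10l no probe was kept, and no spot carried the names Rpl39l or Rps27l.

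At 8 h the most positive probes with 1 sign on all 4 arrays were those of Rps18, Rpl5 and Rpl37. Rps18 read 1.00, 0.23, 0.10 and 0.21 and was fitted at 0.38 (limma adjusted p = 0.270). Rpl5 read 0.81, 0.08, 0.19 and 0.20. The 3 Rpl37 probes were fitted at 0.25, 0.28 and 0.31. At 24 h the same Rpl37 probes read 0.56 to 0.66 on replicate 1 and 0.64 to 0.80 on replicate 2, but −0.37 to 0.00 on replicates 3 and 4. The most negative were Rps4x, Rps16, Rpl22l1, Rpl41 and Rps15. Rps4x read −0.95, −0.04, −0.15 and −0.13 and was fitted at −0.32 (limma adjusted p = 0.275). Rps16 was fitted at −0.30, Rpl22l1 at −0.26, Rpl41 at −0.23 and Rps15 at −0.22, and none passed. In Rps18, Rpl5, Rps4x and Rpl41 the size came mostly from 8 h replicate 1, on which the ribosomal protein probes had an SD of 0.470 against 0.164 to 0.185 on the other 8 h arrays.

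Spots of different brightness gave different ratios. Brightness is the mean log2 signal of a probe over both channels and all arrays. At 24 h the median fitted value was 0.21 for 42 ribosomal protein probes under 11, 0.10 for 65 probes from 11 to 13, and 0.00 for 38 probes at 13 and over. The number that passed the test was 7, 3 and 0 in the same order. Among the other kept probes it was 751 of 11281, 48 of 501 and 26 of 147, in either direction. At 8 h the medians were 0.14, 0.02 and −0.09. For the other kept probes the 24 h medians in the same ranges were 0.00, −0.05 and −0.21, and at 8 h they were −0.01, 0.00 and −0.10. The median of the ribosomal protein probes was higher than that of the other probes in each range at both times, though in the brightest range at 8 h the medians were −0.09 and −0.10. Across the 145 probes the correlation of the fitted value with brightness was −0.34 at 24 h and −0.41 at 8 h, as a description of probes that share the same 8 arrays. Over all 12074 kept probes it was −0.10 and −0.04.

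**Figure D3:**
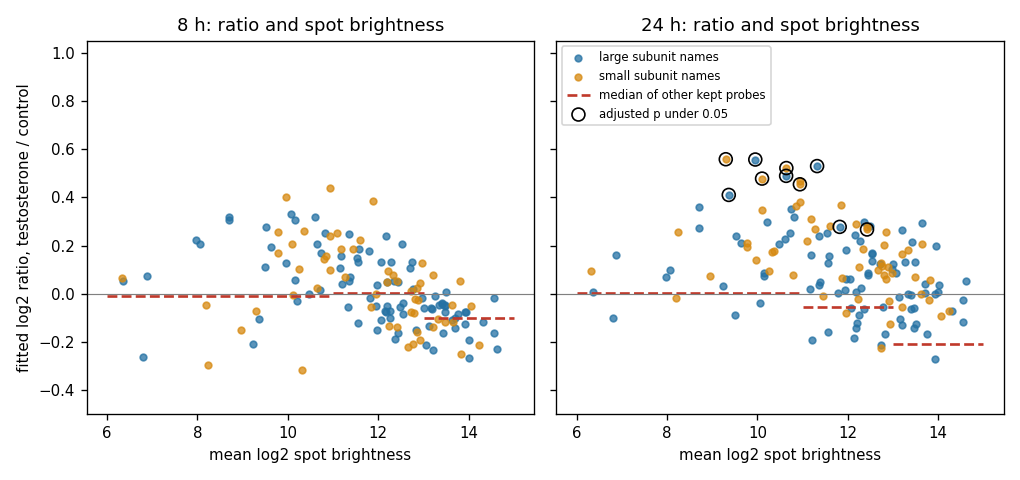
Fitted log2 ratio of testosterone over castrated control RNA (vertical axis) against mean log2 spot brightness (horizontal axis) for the 145 kept ribosomal protein probes at 8 h (left) and 24 h (right). Rings mark the 10 probes with adjusted p under 0.05, and dashed lines are medians of the other kept probes under 11, from 11 to 13, and at 13 and over. All 10 ringed probes lie below a brightness of 13.

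Probes of one gene often differed. Of the 84 names with a kept probe, 48 had 2 to 4, and these probes share a target and are not replicates. At 24 h all probes were above 0 in 26 of the 48 genes, all were below 0 in 5, and the signs were mixed in 17. The range between the lowest and the highest probe had a median of 0.13 and was widest for Rpl21 (0.49), Rpl14 (0.47) and Rps14 (0.47). The Rps14 probes had fitted values of 0.27, 0.47 and 0.00. In 55 of the 76 pairs of probes of a gene the dimmer one had the higher 24 h value, and in 59 of 76 it did at 8 h. Pairs of a gene with more than 2 probes share probes, and no such count was made for other genes of the array. Of the 9 genes that rose, 8 had several kept probes, and Rps6 alone among them rose on more than 1. With only the brightest probe of each gene, 3 of 84 ribosomal protein genes were called at 24 h, among 772 of 10882 genes over all. The probes of Rpl8 (chromosomes 1 and 7) and of Rpl37a (chromosomes 5 and 9) were placed by the files on 2 chromosomes. Ribosomal protein genes have many processed pseudogenes, so a probe may bind several near-identical transcripts and its value may be a sum over them.

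**Figure D4:**
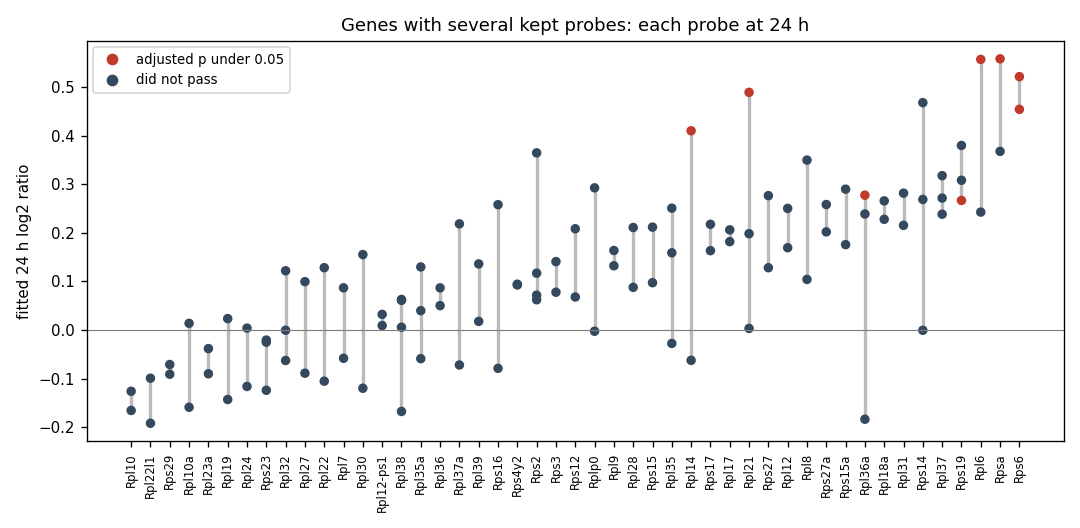
Fitted 24 h log2 ratio (vertical axis) of every probe of 47 of the 48 ribosomal protein genes with several kept probes, ordered by the gene's median, with a line from its lowest to its highest probe. Filled red points passed the test. Of these genes only Rps6 has more than 1 probe that rose, and 17 genes have probes on both sides of 0.

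At 24 h arrays of the same dye orientation were more alike in the ribosomal protein probes, as they were over the whole array. Orientation was the same split as replicates 1 and 2 against 3 and 4. An effect of the dye therefore cannot be told apart from a likeness of those samples. Over the 145 probes, 24 h replicates 1 and 2 (treated RNA in Cy5) correlated at 0.76 and replicates 3 and 4 (treated RNA in Cy3) at 0.30. Between the orientations the correlations were 0.02, −0.02, 0.05 and −0.36. Over all kept probes the pairs of the same orientation also correlated more, at 0.70 and 0.54, than those between the orientations, at 0.23 to 0.40. At 8 h the pairs of the same orientation correlated at 0.19 (replicates 1 and 2) and 0.49 (replicates 3 and 4) over the 145 probes. Those between the orientations ran from −0.37 to 0.24. Over all kept probes the values were 0.27 and 0.35, against −0.12 to 0.37, so the kinds of pair overlapped. These are correlations across probes, which are not independent replicates. The median over probes of the mean of 2 arrays at 24 h was 0.11 with treated RNA in Cy5 and 0.10 with it in Cy3.

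Other parts of the protein-making machinery were counted in the same fit at 24 h, when 4 lists of related genes could be set beside the ribosomal proteins through their background of 4.15% risen and 2.77% fallen. Of 35 probes for ribosome biogenesis, 2 rose and 2 fell, with a median of 0.01. Fbl, the methyltransferase of box C/D particles, rose by 0.34 (limma adjusted p = 0.0301), and Pes1, needed for large subunit maturation, fell by 0.56 (limma adjusted p = 0.00287). Of 49 probes for translation factors, 1 rose and 1 fell, with a median of 0.01. They were the cap-binding protein Eif4e at 0.31 (limma adjusted p = 0.0251) and the chaperone subunit Naca at −0.33 (limma adjusted p = 0.0434). Of 14 probes for regulators of TOP message translation, 1 rose and 1 fell. Mtor, Akt1, Tsc1, Myc and Sesn1 had no kept probe. Rps6kb1, the kinase that phosphorylates Rps6, read 0.25, 0.20, 0.51 and 0.69, with a fitted value of 0.41 (limma adjusted p = 0.0289). Ddit4l, an inhibitor of mTOR signalling, read −1.50, −1.49, −1.42 and −0.68, with a fitted value of −1.27 (limma adjusted p = 0.000379) in a fit without 8 h replicate 1. All 4 arrays were above 0 for Rps6kb1 and below 0 for Ddit4l, but both were named for their small p-values on these arrays. Ddit4 had a fitted value of −0.03 (limma adjusted p = 0.919). Of 70 probes for mitochondrial ribosomal proteins, which serve the separate ribosome of mitochondria, 5 rose and 2 fell, with a median of 0.03. Mrpl12 rose by 0.51 and Mrpl45 by 0.45, and Mrpl44 fell by 0.56. At 8 h none of these lists had a probe past the threshold.

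Markers of some other cell types moved at 24 h as well. Of 13 macrophage and monocyte probes 5 rose and 0 fell, and the median of the list lay between 0.18 and 0.60 on the 4 arrays. Of 10 fibroblast probes 5 rose and 0 fell, with array medians of 0.35 to 0.55. Of 3 adipocyte probes 1 rose, with array medians of 0.29 to 0.54, and of 7 endothelial probes 1 rose, with array medians of −0.15 to 0.10. None of 6 erythrocyte probes passed the test, and their array medians ran from 0.04 to 1.73 at 24 h and from −2.02 to 0.28 at 8 h. Of 15 skeletal muscle fibre probes 1 rose and 2 fell, with array medians of −0.47 to −0.20. None of 6 smooth muscle and pericyte probes and none of 7 Schwann cell and nerve probes passed, with list medians of 0.01 and 0.00. The 1 lymphocyte probe and the 1 neutrophil probe each had −0.11 and did not pass. At 8 h the array medians of the macrophage list were −0.74 to −0.09 and those of the fibroblast list −0.68 to 0.03. The macrophage markers Ptprc, Cd14 and Mrc1 and the fibroblast marker Thy1 had no kept probe. The part of these cell types in the ribosomal protein values was not tested, and in whole tissue a change in the number of cells of a type cannot be told apart from a change in RNA per cell.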

How the data were processed

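Agilent 2-colour rat arrays were read from the deposited scanner files, whose software was, per the submitters' processing notes, Agilent Feature Extraction in version 9.5.3.1. The deposited intensity values are mean spot signals and local backgrounds of each channel. The deposited log10 ratio of red over green was not used. The authors' value table holds log2 ratios of treated over control, which equal the processed signals of the scanner files within 1.4e-05. Its array medians ran from −0.144 to 0.0896. It entered as an alternative.

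Background correction (normexp with an offset of 50) and a loess curve per array were run in limma 3.58.1 under R 4.3.3. Control spots and outlier flags were left out, ratios were turned to treated over control by the labelled dyes, and spots of a probe were averaged. Of 30367 probes on 42877 gene spots, 12074 were kept. The fit used all 8 arrays with an effect of each time and of the dye. The arrays' number limits the precision. Outlier flags took 731 to 927 gene spots per array, and the SD of the log2 ratios was 0.437 on 8 h replicate 1 against 0.180 to 0.303 on the others.

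The members, lists and tests were chosen with earlier results of these data known. Members named are those past the threshold, the 5 highest and 5 lowest per time with 1 sign on all arrays, paralogue pairs, stalk proteins, Rps6 and Rpsa, and the 3 genes whose probes differ most. Rpl11, Rpl13a, Rpl32 and Rps9 fall outside this rule and were named after their values were seen. The fit was tested on simulated data. Replicate numbers were checked for pairing: same-numbered arrays of the times had deviations that correlated at −0.257, 0.174, −0.166 and −0.0698. Same-numbered arrays had opposite dye orientations, so the check cannot decide whether the numbers pair the samples. The values of 1 gene are not reported here, though it is included in the counts.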

Additional observations from a re-analysis of the deposited data

Results flagged for a closer look

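For 50 probes named by the rule and 3 array medians, each group of 4 arrays was searched for an array that stood apart from the other 3 by Dixon's 95% criterion, in 106 groups. It was found 7 times, all at 8 h, 6 of them on replicate 1, and chance gives about 1 in 20 groups. On 8 h replicate 1 Rps18 was at 1.00 while the others ran from 0.10 to 0.23. Rps4x was at −0.95 there (others −0.15 to −0.04), Rpl41 at −0.83 (others −0.05 to −0.01) and Rpl5 at 0.81 (others 0.08 to 0.20). Rplp1 was at 0.10 (others −0.02 to 0.00) and 1 Rpl7 probe at −0.26 (others −0.07 to −0.04). On 8 h replicate 2 the brighter Rpl22l1 probe was at −0.14 while the others ran from 0.10 to 0.11.

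The second Rps6 probe differed between the times by 0.50 in the fit (limma adjusted p = 0.0488).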

How the results depend on the processing

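The count of 10 ribosomal protein probes past the threshold at 24 h became 6 with median centring, 3 with the processed signals, 6 with no dye coefficient, 24 with array weights (23 higher, 1 lower), 27 with each time fitted alone (26 higher, 1 lower) and 3 with the brightest probe per gene, where 84 genes were tested. Over all kept probes the calls at 24 h went from 835 to 437, 575, 681, 1667, 1708 and 772 in the same order. Leaving out 1 array gave 1 to 21 at 24 h, 0 to 11 at 8 h and 0 to 8 between the times. The count of 1 between the times became 0 with median centring, the processed signals, the strict filter, no dye coefficient, the brightest probe per gene and the replicate block, and 4 with array weights. The median moved to 0.52 at 24 h and 0.48 at 8 h with median centring, and to 0.15 at 24 h with the processed signals. Leaving out 1 array gave medians of 0.09 to 0.12 at 24 h and −0.04 to 0.02 at 8 h. The large minus the small subunit median ran from −0.09 to −0.04 at 24 h and from −0.049 to −0.0010 at 8 h. The causes were not tested. The 11 calls on named probes held in 141 of 211 refits and were lost in 70. With the replicate number as a block 10 probes passed at 24 h and 0 at 8 h, and whether the numbers pair the samples is not known. None of these refits reversed a call.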
